A study of Mus musculus with 7 samples.

Results

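MyoD peaks at the ends of gene loci were 986 of the 10756 peaks in the authors' list for 2-day myotubes. They were chosen by position alone: a peak on chromosomes 1 to 19 was kept where its summit, the base with most overlapping tags, lay within 1 kb of either end of a gene's locus in the expression table. Only loci of at most 200 kb that belonged to 1 gene of the table were used, 20637 of 37975 genes. The 986 peaks made up 9.28% of the 10620 peaks on those chromosomes (exact 95% interval 8.74 to 9.85). They touched 1027 genes in 1122 pairs of a peak and an end. Intervals are exact (Clopper-Pearson) and reflect counting error alone.

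The study profiled mouse primary myoblasts, which are cultured descendants of muscle satellite cells taken by cell sorting from mice aged 4 to 6 weeks, and the multinucleate myotubes that form when serum is changed to 5% horse serum for 48 hours. Polyadenylated RNA was sequenced from myoblasts in growth medium and from myotubes at 2 days. Both RNA cultures carried an empty retroviral vector, and each has 1 value per gene in FPKM, fragments scaled by transcript length and library size. MyoD binding came from a chromatin immunoprecipitation (ChIP) library of myotubes at 2 days, a sample whose label says that it came from an earlier one and names no vector. The series held 7 samples, and 4 ChIP samples for histone marks and histone H3 were not analysed here. The labels read here state no strain, sex or number of pooled animals. In such bulk samples fewer cells of a type and less RNA per cell cannot be told apart. All 10 listed muscle lineage markers were above 0, with summed values of 3046 FPKM in myoblasts and 29399 in myotubes. Summed markers of fibroblasts (7.90 and 1.47 FPKM), adipocytes (16.4 and 5.69), endothelium (5.45 and 2.90), immune cells (32.6 and 27.1) and Schwann cells or neurons (18.8 and 2.69) were far lower. The highest member of each list, by mean of both conditions, was Col1a1 (2.16 FPKM), Lpl (8.99), Pecam1 (2.42), Itgam (22.4) and Nefl (8.48) in that order. Lum, Plin1 and Emr1 were listed at 0. Smooth muscle and pericyte markers summed to 303.0 and 2042 FPKM, mostly Acta2, which differentiating myoblasts also express, while Cnn1 was listed at 0. The part of other cell types in the results was not tested.

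MyoD is a basic helix-loop-helix factor that pairs with an E protein and binds the E-box, a short motif written CANNTG. In muscle cells it opens chromatin and drives genes of terminal differentiation, and many of its sites lie far from genes, in enhancers. The start of a gene holds the promoter, where RNA polymerase is loaded, and the far end holds the site of transcript cleavage. A peak at a locus end can therefore sit at a promoter, at a terminator or at an element that happens to lie beside either.

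The sequences below show the promoter of 5 genes whose MyoD summit lay within 250 bp of the start: 3 subunits of the muscle acetylcholine receptor, the muscle glycogen phosphorylase Pygm and the muscle caveolin Cav3. Each is the run of 250 bases upstream of the RefSeq start, read 5′ to 3′, with every CANNTG in capitals. The positions are chr2:73580339-73580588 (minus strand), chr1:87205561-87205810 (plus strand), chr11:69795938-69796187 (minus strand), chr19:6384158-6384407 (plus strand) and chr6:112459255-112459504 (plus strand) in the GRCm38.p6 build of RefSeq.
Chrna1: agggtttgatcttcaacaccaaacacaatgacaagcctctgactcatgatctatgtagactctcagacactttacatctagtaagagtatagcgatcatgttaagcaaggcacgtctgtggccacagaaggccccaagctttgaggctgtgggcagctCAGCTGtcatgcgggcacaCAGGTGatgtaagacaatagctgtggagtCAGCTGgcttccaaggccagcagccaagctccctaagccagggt
Chrng: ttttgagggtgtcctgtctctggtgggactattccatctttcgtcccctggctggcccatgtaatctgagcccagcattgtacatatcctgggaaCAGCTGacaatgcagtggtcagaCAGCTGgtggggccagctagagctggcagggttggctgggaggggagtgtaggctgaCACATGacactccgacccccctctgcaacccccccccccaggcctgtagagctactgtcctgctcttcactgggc
Chrnb1: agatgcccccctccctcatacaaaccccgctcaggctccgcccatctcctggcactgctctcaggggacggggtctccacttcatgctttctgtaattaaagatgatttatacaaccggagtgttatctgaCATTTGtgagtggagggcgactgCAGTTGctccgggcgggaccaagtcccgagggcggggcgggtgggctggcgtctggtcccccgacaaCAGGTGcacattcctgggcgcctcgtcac
Pygm: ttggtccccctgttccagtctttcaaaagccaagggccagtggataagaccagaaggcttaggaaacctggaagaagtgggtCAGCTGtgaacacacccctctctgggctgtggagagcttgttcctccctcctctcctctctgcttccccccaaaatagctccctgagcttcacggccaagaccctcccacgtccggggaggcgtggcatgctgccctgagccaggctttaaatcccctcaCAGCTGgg
Cav3: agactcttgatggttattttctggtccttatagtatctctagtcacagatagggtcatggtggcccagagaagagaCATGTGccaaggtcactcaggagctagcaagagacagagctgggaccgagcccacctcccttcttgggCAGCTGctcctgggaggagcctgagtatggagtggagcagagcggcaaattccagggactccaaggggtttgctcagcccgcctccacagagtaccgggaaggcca

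Peaks and loci are in mm9 and these promoters are in GRCm38.p6, so summits and motifs were placed only by their distance from the start in each source. The Chrna1 summit lay 93 bp upstream of its locus start, and its promoter held CAGCTG beginning 92 and 44 bases upstream of the RefSeq start and CAGGTG beginning 73 bases upstream. The Chrng summit lay 148 bp upstream of its start, and CAGCTG began 155 and 132 bases upstream. The Chrnb1 summit lay 4 bp inside its locus, with CAGGTG beginning 29 bases upstream. For Pygm the summit was 54 bp inside and CAGCTG began 168 and 8 bases upstream, and for Cav3 the summit was 172 bp inside and CAGCTG began 106 bases upstream. A match is a description of letters and does not show that MyoD bound it.

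The peaks gathered at gene starts. Strand was known for 752 of the 1027 genes, by symbol from the RefSeq promoter table, and gave 799 pairs, of which 651 were at a 5′ end (81.5%, interval 78.6 to 84.1) and 148 at a 3′ end. Of eligible genes with a known strand, 633 of 10573 had a peak at the 5′ end (5.99%, 5.54 to 6.46) and 144 at the 3′ end (1.36%, 1.15 to 1.60). For the other 275 genes only the low or high coordinate end could be given, and 323 pairs had no side. Without the strand no side stood out, since 49.5% of the 1122 pairs were at the high-coordinate end.

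Around 5′ ends the summits formed a narrow peak, as the plot of summits by distance shows. Of the 651 summits at 5′ ends, 248 lay within 100 bp of the end (38.1%, 34.3 to 41.9) and 402 within 250 bp (61.8%, 57.9 to 65.5), with a median distance of 164 bp. Within 100 bp there were 124 summits per 100 bp, against 6.90 over 1 to 2 kb upstream and 9.30 over 1 to 2 kb into the gene. The summits were split over both sides of the start, with 53.6% inside the locus (49.7 to 57.5). Around 3′ ends no such gathering was seen. There were 4 summits per 100 bp within 100 bp of the 3′ end, against 9.90 over 1 to 2 kb beyond the gene and 7.30 over 1 to 2 kb inside it, and the median distance was 520 bp. Of the 145 peaks at 3′ ends, 28 were also within 1 kb of an end of another locus (19.3%).

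**Figure D1:**
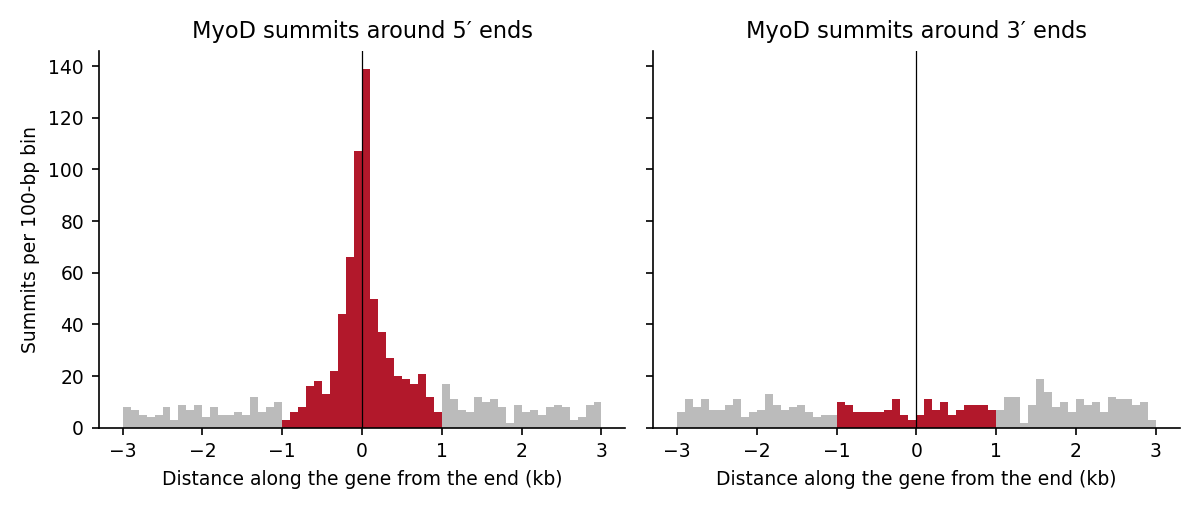
MyoD summits per 100-bp bin from 3 kb before to 3 kb after the 5′ ends (left) and 3′ ends (right) of 10573 eligible genes with a known strand, in the direction of transcription, with bins within 1 kb in red. The bins beside the 5′ end stand far above the level 1 to 3 kb away, while the bins beside the 3′ end do not.

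Peaks at locus ends held more tags but lower fold enrichment than other peaks. Tags per peak, fold enrichment over the regional background and the false discovery rate were given by the authors for every peak. The median was 17 tags (range 7 to 707) in the 986 end peaks and 13 (7 to 231) in the 9634 other peaks on the same chromosomes, and 41.5% (38.4 to 44.6) against 29.1% (28.2 to 30.1) held at least 20 tags. The median fold enrichment was 11.99 at ends and 15.5 elsewhere, and the median width was 533 and 417 bp. A false discovery rate of at most 5% was listed for 13.6% of end peaks (11.5 to 15.9) and 19.9% of other peaks (19.1 to 20.7). Peaks at 5′ ends had a median of 19 tags and 11.7-fold enrichment over 560 bp, and peaks at 3′ ends 14 tags and 14.1-fold over 426 bp. The share of peaks that lay at a locus end was 4.98% among peaks of 7 to 9 tags, 12.04% at 15 to 19 tags and 15.9% at 50 tags or more. These are descriptions of 1 list, with no replicate and no test.

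The end peak with most tags was at Myod1, the gene of MyoD itself. It held 707 tags on chromosome 7 with its summit at 53633631, 831 bp inside the high-coordinate end, (mm9) at 10.3-fold enrichment. Its false discovery rate was listed as 0%. It was also the widest end peak, at 2464 bp. From 53631485 to 53633948 it covered most of the 2619 bp locus (53631843 to 53634462) and passed its low-coordinate end. Its fold enrichment was below the end-peak median of 11.99. In tags the peak stood apart from all others. No peak away from locus ends held more than 231. The cause of this was not tested. Myod1 went uncalled at 895 FPKM before and 293 after differentiation, with a log2 change of -1.61 (SE 0.83) and q of 0.154 in the authors' deposited table. The next peak was at Chrna1, the alpha subunit of the muscle acetylcholine receptor, with 99 tags at 16.0-fold enrichment.

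Tags and fold enrichment ranked the peaks differently. The peak at Npas4, a neuronal activity-dependent factor, held 83 tags, 796 bp inside the 5′ end, at 3.82-fold, and its gene was at 0.208 and 0.0322 FPKM. The peak 775 bp beyond the high-coordinate end of 2810468N07Rik had 77 tags and 35.7-fold enrichment but a listed false discovery rate of 66.7%. By fold enrichment the first end peak was at the start of Urod, an enzyme of haem synthesis, at 54.2-fold from 18 tags with a summit 73 bp upstream. Urod, at 381 FPKM before and 430 after differentiation, passed no test. Rsad2 (46.2-fold, 12 tags), A930003A15Rik (45.0-fold, 24 tags) and Npy2r (41.0-fold, 9 tags) followed, each at a 5′ end, and Npy2r, a neuropeptide receptor gene, was listed at 0 in both conditions.

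Genes with an end peak were mostly expressed. Their median level was 17.2 FPKM (mean of both conditions), against 0.0623 over all 20637 eligible genes, many of which were at or near 0. Over tested genes alone the medians were 26.8 and 17.1 FPKM. Of the 1027 end-peak genes 88 (8.57%) were listed at 0 in both conditions, against 44.3% of eligible genes. The share of eligible genes with an end peak went up with level, from 0.962% of genes at 0 (0.772 to 1.18) through 6.40% at 1 to under 5 FPKM and 11.9% at 20 to under 100 to 13.9% at 100 FPKM or more (11.9 to 16.2). At 5′ ends the shares were 0.583% of genes at 0 and 15.9% of those at 100 FPKM or more, and at 3′ ends 0.408% and 3.65%, as the plot by expression level shows. End-peak genes also had longer loci, with a median of 15180 bp against 4585 bp over all eligible genes. That background includes the 44.3% of genes at 0, and lengths were not compared over tested genes alone.

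**Figure D2:**
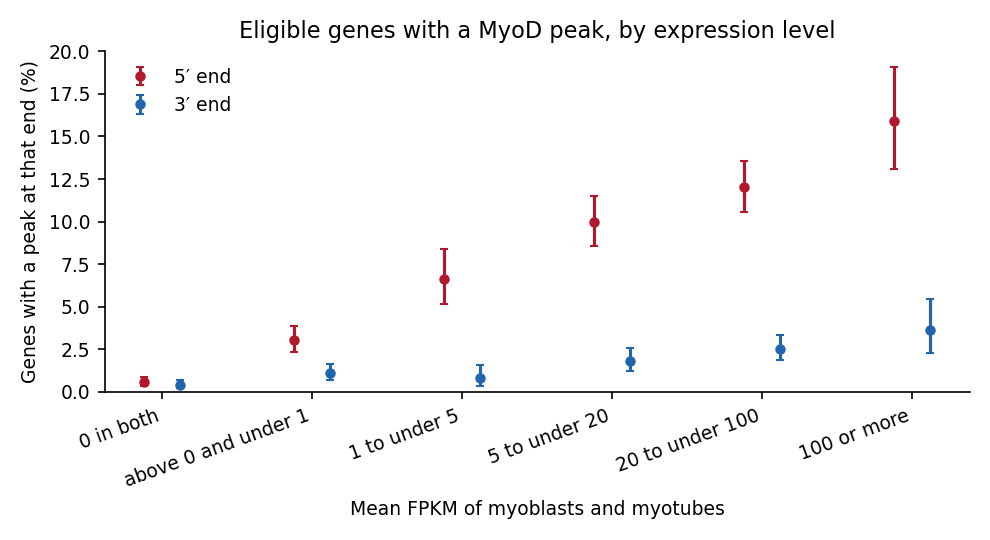
Percent of eligible genes of known strand with a MyoD summit within 1 kb of the 5′ end (red) or 3′ end (blue), by mean FPKM of the 2 conditions; bars are exact 95% intervals for counting error. The 5′ share goes up with each class, from 0.583% to 15.9%, and the 3′ share reaches 3.65%.

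Some end peaks with many tags were at genes with no signal in the polyadenylated RNA. Among genes listed at 0 in both conditions, the most tags were at a U11 small nuclear RNA gene of 134 bp (73 tags), followed by Xkr7 (61), the LIM homeobox gene Lhx3 (40), Gm14004 (32) and Mir1945 (32). In that order the fold enrichment was 6.14, 10.35, 16.7, 15.98 and 7.90, and the false discovery rate 21.35%, 18.44%, 8.76%, 2.84% and 16.16%. The Lhx3 summit lay 10 bp inside the 5′ end. For small RNAs without a poly(A) tail, a value of 0 in a polyadenylated library does not show that the gene was silent.

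Mir206, which encodes a muscle-specific microRNA that MyoD is known to activate, was the member among the listed noncoding genes. Its peak of 28 tags on chromosome 1 had a summit at 20668283, 807 bp before the low-coordinate end of the 73 bp locus, which is the 5′ side on the plus strand given by RefSeq. The table listed Mir206 at 0 FPKM in both conditions. The mature sequence is shown with its seed, bases 2 to 8, in capitals, from the RefSeq table in GRCm38.p6.
mmu-miR-206-3p: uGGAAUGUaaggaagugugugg

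The comparison of myotubes with myoblasts asked how the genes at these ends changed on differentiation. By the authors' deposited table, 88 of 835 tested genes with an end peak were higher in myotubes (10.5%, interval 8.54 to 12.8) and 113 were lower (13.5%, 11.3 to 16.0). The background was 6.52% higher and 17.3% lower over all 15966 tested genes, and 6.56% and 17.2% over the 8287 eligible ones. The median log2((myotube FPKM + 1)/(myoblast FPKM + 1)) was -0.20 over 807 end-peak genes with a mean of at least 1 FPKM and -0.36 over 7912 eligible genes. Read the other way, an end peak was found at 88 of 544 eligible genes called higher (16.2%, 13.2 to 19.5), 113 of 1425 called lower (7.93%, 6.58 to 9.46) and 634 of 6318 not called (10.03%, 9.30 to 10.8). Of tested genes with an end peak, 634 of 835 (75.9%) were not called either way, about the same share as over all eligible tested genes (6318 of 8287, 76.2%).

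The median log2 fold change of 15416 tested genes above 0 in both conditions was -0.41 in the authors' deposited table. After centring on it, 120 end-peak genes were higher (14.4%) and 66 lower (7.90%), with 9.94% and 10.2% over all tested genes and 9.58% and 10.2% over eligible ones. The higher share of the calls moved from 43.8% to 64.5% at end-peak genes and from 27.6% to 48.5% over eligible genes. This centring raised every finite log2 fold change, which favours higher calls and works against lower ones. All 88 genes called higher kept that call, as the direction of the shift made likely, and 66 of the 113 lower calls were kept.

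Within the end peaks, calls differed in share by distance, side and tags, as the plot of calls by group shows. Where the summit lay within 250 bp of the 5′ end, 25 of 369 tested genes were higher (6.78%, 4.43 to 9.84), which is near the background, and 54 lower (14.6%). At over 250 bp from the 5′ end 26 of 201 were higher (12.9%, 8.63 to 18.4) and 32 lower (15.9%). At 3′ ends 19 of 111 were higher (17.1%, 10.6 to 25.4) and 15 lower (13.5%). Genes whose end peak held at least 20 tags were higher in 56 of 385 cases (14.5%, 11.2 to 18.5), and those with fewer tags in 32 of 450 (7.11%, 4.91 to 9.89). These groups share genes: a gene with summits near both ends was counted at each. Of 144 genes with a peak at the 3′ end, tested or not, 119 had one at that end only. The groups were described and their differences were not tested.

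**Figure D3:**
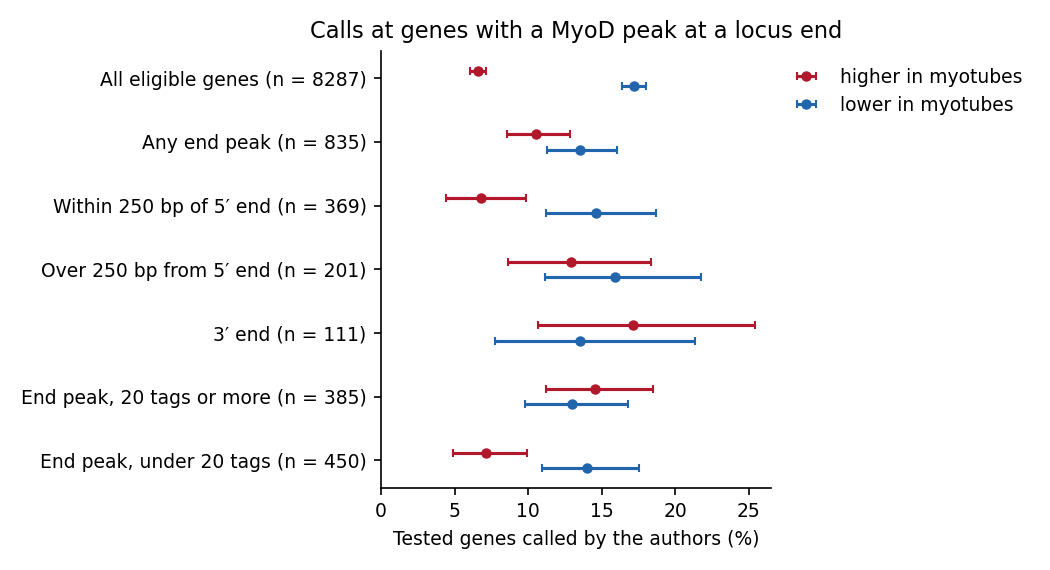
Percent of tested genes that the authors called higher (red) or lower (blue) in 2-day myotubes, for all eligible genes and for groups of genes with a MyoD end peak; bars are exact 95% intervals for counting error. Higher calls range from 6.78% within 250 bp of the 5′ end to 17.1% at 3′ ends, beside 6.56% of all eligible genes. The groups share genes.

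The shares were also set out by level. In each of 4 classes of mean FPKM the higher share was larger with an end peak than without, but only slightly at 5 to under 20 FPKM. It did not go up steadily with level, and the differences were not tested. Among tested eligible genes at 100 FPKM or more, 28 of 147 with an end peak were higher (19.05%) against 73 of 911 without one (8.01%), and at 20 to under 100 FPKM 33 of 327 (10.1%) against 141 of 2429 (5.80%). At 5 to under 20 FPKM the counts were 13 of 226 (5.75%) against 109 of 2202 (4.95%), and under 5 FPKM 14 of 135 (10.4%) against 133 of 1910 (6.96%). Lower calls, from the top class down, were 14.3% against 9.88%, 12.5% against 17.2%, 15.9% against 21.3% and 11.1% against 17.6%. Across 807 end-peak genes Spearman's rho was 0.16 between the most tags at an end and the log2 ratio, and 0.27 between tags and mean FPKM. Genes are not independent replicates and the tags come from 1 library.

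**Figure D4:**
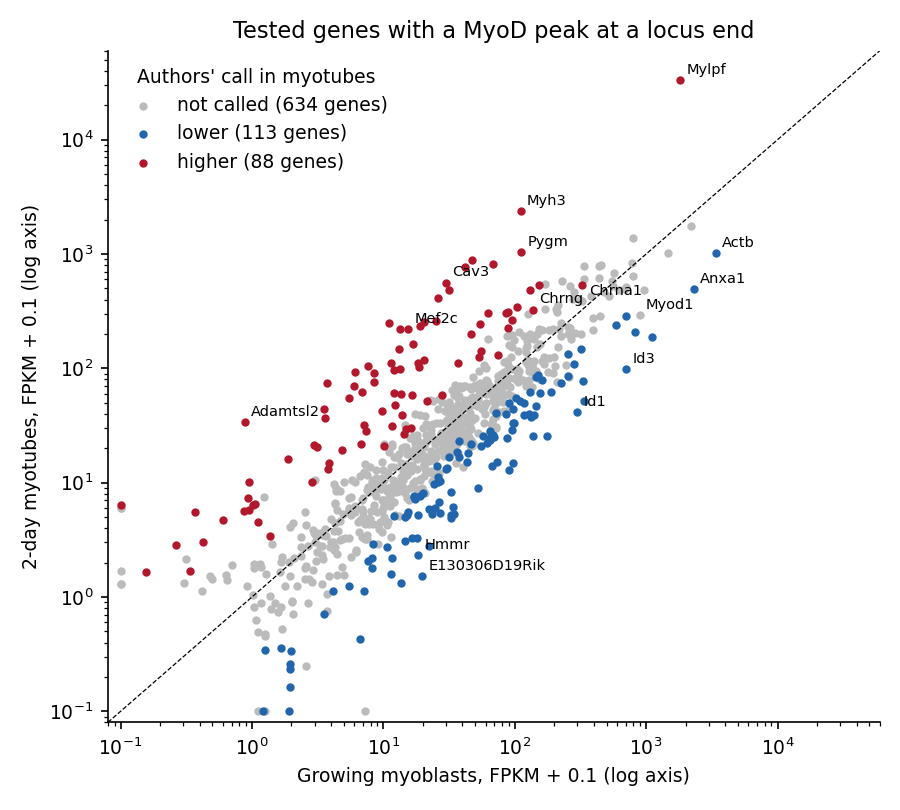
FPKM + 0.1 in growing myoblasts (x) and 2-day myotubes (y), log axes, for the 835 tested genes with a MyoD end peak, coloured by the authors' call, with a dashed line at equal values. The 88 higher genes reach from below 1 FPKM to Mylpf at 33258 FPKM in myotubes, and 634 genes were not called.

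The largest rises at an end peak were mostly muscle genes. Adamtsl2, a secreted matrix protein, rose from 0.783 to 33.9 FPKM (a log2 change of 5.44 with SE 0.59 and a q of 0 as listed in the authors' deposited table), and its peak of 35 tags and 31.5-fold enrichment lay 636 bp inside the 3′ end. Tcap, the titin cap, had 32 tags 483 bp beyond the high-coordinate end and rose from 11.0 to 251 FPKM (log2 4.51, SE 0.71, q = 1.22e-08, authors' deposited table). Myh3, the embryonic myosin heavy chain, had 31 tags 645 bp upstream of its start and rose from 111 to 2362 FPKM (log2 4.41, SE 0.61, q = 6.39e-11, authors' deposited table). The others of the 10 largest were Slc2a4, Tnni2, Cav3, Casq2, Mylpf, Hfe2 and Cacna1s. Their peaks held 26 to 41 tags, at or above the upper quartile of end peaks (26 tags), except that of Casq2 with 9. In these 10 genes the summit was 88 to 694 bp from the end, and only at Cacna1s was it within 100 bp. In the order named, the false discovery rates of the 10 peaks were 2.62%, 3.08%, 3.95%, 23.5%, 19.4%, 7.88%, 16.8%, 6.14%, 8.48% and 8.48%.

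The largest falls included cell division genes and the Id inhibitors. E130306D19Rik fell from 19.7 to 1.41 FPKM (log2 -3.80, SE 0.74, q = 6.00e-06, authors' deposited table), with 15 tags 40 bp inside its 5′ end. Nsl1, a kinetochore subunit, fell from 13.6 to 1.24 FPKM (25 tags) and Hmmr, a spindle-associated hyaluronan receptor, from 18.4 to 2.22 (21 tags). Cit, the citron kinase of cytokinesis, fell from 22.3 to 2.72 FPKM with 13 tags 71 bp upstream of its start, and Chek1, a checkpoint kinase, from 32.7 to 4.83 with 24 tags 220 bp inside. Dlx3, a homeobox gene, had the strongest of these peaks, 50 tags at 36.7-fold, 238 bp beyond its high-coordinate end, and fell from 11.3 to 1.503 FPKM. Birc5, Id1, Id2 and Id3 were the others. All 10 kept the lower call after centring. They were chosen as the largest falls, with log2 changes of -2.76 (Chek1) to -3.80, large beside the median of -0.41 used for centring. In the order named, the false discovery rates of their peaks were 20.09%, 23.45%, 11.98%, 6.29%, 14.25%, 5.97%, 19.48%, 6.17%, 11.92% and 2.86%.

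Receptor and synapse genes had the highest share of any list. The lists were chosen with earlier results of these data known. Counts are over eligible genes, of which 1027 of 20637 (4.98%) had an end peak. Most listed genes were tested, and of eligible tested genes 835 of 8287 (10.1%) had one. Of 9 eligible neuromuscular junction genes 6 had one: Chrna1, Chrnb1, Chrnd and Chrng, which encode receptor subunits, Musk, the kinase that clusters them, and Dok7, its activator. Only Chrng was called, rising from 137 to 327 FPKM (log2 1.26, SE 0.37, q = 0.00494, authors' deposited table), with 83 tags at 18.5-fold. Chrna1 was at 327 and 387 FPKM, and Chrnb1 at 181 and 215 with 43 tags. Chrnd was at 99.3 and 179 FPKM with 42 tags 37 bp from its low-coordinate end, and Musk at 34.3 and 41.8 with 36 tags 46 bp upstream of its start. All 6 had a higher FPKM in myotubes, but 5 did not pass the authors' test. In the whole junction list 2 of 9 tested genes were higher and 1 lower. Dok7, at 38.4 and 69.4 FPKM, had 21 tags near the edge of the window, 976 bp inside, and was called higher after centring. The false discovery rates of the peaks given here ran from 2.61% (Chrna1) to 14.2% (Dok7).

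Excitation-contraction coupling genes, which link the membrane signal to calcium release, had 7 of 13 eligible members with an end peak. The authors' deposited table had 5 of these higher and 0 lower, against 9 and 0 of the 13. Cav3 rose from 29.9 to 561 FPKM (41 tags), Cacng1, a calcium channel subunit, from 68.8 to 811 (37 tags, 54 bp from its end) and Cacna1s, the voltage sensor, from 26.1 to 411 (33 tags). Hrc, a calcium-binding protein of the reticulum, rose from 7.60 to 105 FPKM with 29 tags 591 bp upstream, and Casq2 from 41.7 to 777 with 9 tags. Jsrp1, at 62.4 and 181 FPKM with 46 tags, and Stac3, at 95.9 and 194, were not called as deposited and were higher after centring. Stac3, which couples the voltage sensor to the release channel, had peaks at both ends, 39 tags 14 bp inside the low-coordinate end and 22 tags 386 bp beyond the other. The false discovery rates of the peaks given here ran from 2.92% (Stac3, low-coordinate end) to 23.7% (Cacng1, at 6.63-fold).

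Sarcomere genes had 9 of 29 eligible members with an end peak, and of these the authors' deposited table had 7 higher and 0 lower, against 24 and 0 of 28 tested. Mylpf, the fast regulatory light chain, rose from 1816 to 33258 FPKM (29 tags, 121 bp inside the 5′ end) and Tnni2, the fast troponin I, from 47.2 to 895 (36 tags). Actn3, the fast alpha-actinin, had the most tags of the list, 42, and was at 169 and 550 FPKM, not called as deposited and higher after centring. Ankrd1, a stress-responsive ankyrin protein, had 29 tags 205 bp upstream and was at 526 and 427 FPKM. Peaks were thus found at genes that changed and at genes that were not called within the same list. The false discovery rate was 6.14% at Mylpf, 19.44% at Tnni2, 5.06% at Actn3 and 18.56% at Ankrd1.

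Of 12 eligible muscle metabolism genes 3 had an end peak and all 3 rose, against 8 of the 11 tested in the whole list. Pygm went from 111 to 1034 FPKM (57 tags), Adssl1, the muscle adenylosuccinate synthase, from 20.4 to 119 (52 tags, 30 bp inside the 5′ end) and Slc2a4, the insulin-responsive glucose transporter, from 3.65 to 74.4 (26 tags). In that order the false discovery rates of these peaks were 6.43%, 7.84% and 23.5%. The myogenic regulators had 3 of 9: Myod1, Mef2a and Mef2c. Mef2c, a partner of MyoD, rose from 15.4 to 221 FPKM (log2 3.85, SE 0.59, q = 4.10e-09, authors' deposited table) with 23 tags 84 bp inside its start, and Mef2a, at 47.9 and 55.6 FPKM with 32 tags 675 bp upstream, was not called. In the whole regulator list 4 of 9 tested genes were higher and 3 lower. Among fusion and adhesion genes 2 of 9 had a peak: Gm7325 (myomixer), which rose from 11.3 to 111 FPKM (22 tags, 145 bp beyond its high-coordinate end), and Itgb1, at 227 and 252. The whole fusion list had 4 higher and 2 lower of 9 tested. Klhl31, a muscle kelch protein and 1 of 5 eligible genes of the muscle ubiquitin ligase list, rose from 2.86 to 21.4 FPKM. All 5 were tested, with 3 higher and 0 lower.

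Antagonists of MyoD had 3 of 11, and these were the Id genes, whose products tie up E proteins. Id3 fell from 704 to 98.2 FPKM (31 tags, 363 bp inside the 5′ end), Id1 from 300 to 41.6 (21 tags) and Id2 from 177 to 25.5 (14 tags, 5 bp inside the 5′ end). The authors' deposited table calls all 3 lower, against 5 lower and 1 higher of the 9 tested in the list. DNA replication and mitosis genes had 2 of 26, Birc5, an inhibitor of apoptosis needed in mitosis, which fell from 89.9 to 12.7 FPKM (22 tags), and Rrm2, a ribonucleotide reductase subunit, from 337 to 52.1 (13 tags, 39 bp upstream). In the whole list 24 of 26 were lower. All 26 were tested, and the share of this list with an end peak, 7.69%, was near the 10.1% of eligible tested genes.

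The remaining lists had 1 to 3 genes each. Of 10 satellite cell genes 3 had a peak: Fgfr4, at 244 and 106 FPKM and not called, had 42 tags 522 bp beyond its 3′ end. Spry1, an inhibitor of receptor signalling, rose from 3.75 to 14.8 FPKM (12 tags), and Sdc4, a syndecan, fell from 255 to 85.2 (11 tags), a call lost after centring. In the whole satellite cell list 1 of 8 tested genes was higher and 6 were lower. Cell cycle exit genes had 2 of 8, Gadd45b (35 tags, 23.1 and 25.8 FPKM) and Cdkn2c (19 tags, 17.4 and 39.7 FPKM), neither called as deposited and Cdkn2c higher after centring. All 8 were tested, with 2 higher and 0 lower as deposited. Atf4, 1 of 10 genes of the unfolded protein response, had 67 tags 213 bp upstream and 20 tags 188 bp beyond its 3′ end, at 261 and 521 FPKM, not called. Of these 10 genes, all tested, 5 were higher and 0 lower. Anxa1 was the 1 of 5 in the sarcolemma list and fell from 2320 to 497 FPKM beside a peak of 8 tags. That list had 1 higher and 1 lower of 5 tested. Single genes with a peak were Sparc of 8 matrix genes, Ier3 of 13 immediate early genes and Rpl27 of 10 ribosome genes, none of them called. The matrix list had 0 higher and 4 lower of 5 tested. The immediate early list had 1 and 2 of 13, and the ribosome list 0 and 0 of 10.

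Peaks with many tags also lay at genes of general function, most of them abundant. Actb, the cytoplasmic actin, had 74 tags at 17.99-fold, 48 bp inside its high-coordinate end, and fell from 3410 to 1019 FPKM (log2 -1.74, SE 0.24, q = 2.10e-11, authors' deposited table). The genes of highest level that were not called were Rpl41 (2196 and 1745 FPKM, 25 tags), Pkm2 (1467 and 1019, 45 tags), Tuba1b (791 and 1383, 45 tags), Sparc (782 and 840, 41 tags) and Cd63 (965 and 483, 39 tags), each with its peak at the 5′ end. In that order the fold enrichment of these peaks was 12.6, 6.53, 7.56, 5.77 and 11.9. Their false discovery rates were 6.21%, 23.7%, 6.15%, 23.2% and 4.72%. Pak4, a kinase of the cytoskeleton, had 79 tags 866 bp beyond its 3′ end and a second peak of 11 tags 110 bp upstream of its start, and was at 31.0 and 21.2 FPKM, not called. Gm16197, at 5.34 and 3.20 FPKM, had 84 tags 575 bp from its low-coordinate end.

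Most genes had 1 end peak (983 of 1027), 42 had 2 and 2 had 3. Peaks lay near both ends of 70 genes, of which 20 had loci over 2 kb; in a shorter locus 1 summit can be near both ends. Hspb3, a small heat shock protein of muscle with a locus of 781 bp, rose from 5.85 to 70.4 FPKM and had 26 tags 39 bp upstream of its start and 35 tags 670 bp beyond its end. The false discovery rates of these peaks were 23.45% and 21.56%. Of the 986 peaks 901 were at 1 gene, 83 at 2 and 2 at 3 or more, and 69 (7.00%) were also within 1 kb of an end of a locus that the rule left out. At 33 peaks the 2 genes were divergent, on opposite strands with both 5′ ends near the summit. In 25 of these pairs both genes were tested, and in 13 neither was called, in 10 only 1 was, in 2 both were lower and in 0 the calls were opposite. Of all eligible tested genes 6.56% were called higher and 17.2% lower, shares at which few opposite pairs would be found among 25. Agreement within pairs was not tested. The 2 pairs with both genes lower, chosen after their values were seen, were Hmmr with Nudcd2 and Hnrnpa2b1 with Cbx3. Nudcd2 fell from 131 to 62.3 FPKM, Hnrnpa2b1 from 317 to 148 and Cbx3 from 68.0 to 26.2.

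The promoters of genes with a central 5′ peak held the E-box CAGCTG, a form that MyoD is known to bind, in a larger share than other promoters did. Windows of 300 bases, 250 before to 50 after the outermost RefSeq start, were searched on both strands. By distance from the start, summits over 50 bp inside the gene, as at Pygm (54 bp) and Cav3 (172 bp), lay outside these windows. The bases under such summits were not searched. CAGCTG was in 111 of 402 windows whose summit lay within 250 bp of the 5′ end (27.6%, 23.3 to 32.3), in 16.1% of all 27025 windows and in 13.8% (12.8 to 14.8) of 4482 windows of eligible genes with a mean of at least 1 FPKM and no end peak. CAGGTG, counted with its reverse complement CACCTG, was in 20.6% (16.8 to 24.9), 20.0% and 15.7%. CACGTG was in 11.4%, 7.24% and 10.8%, and CATATG in 0.498%, 3.91% and 1.41%. Any CANNTG, which includes all of these, was in 69.9%, 72.1% and 62.0%. The median GC content was 62.3%, 52.7% and 60.7%, so base composition differed between the groups, and its part was not tested.

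**Figure D5:**
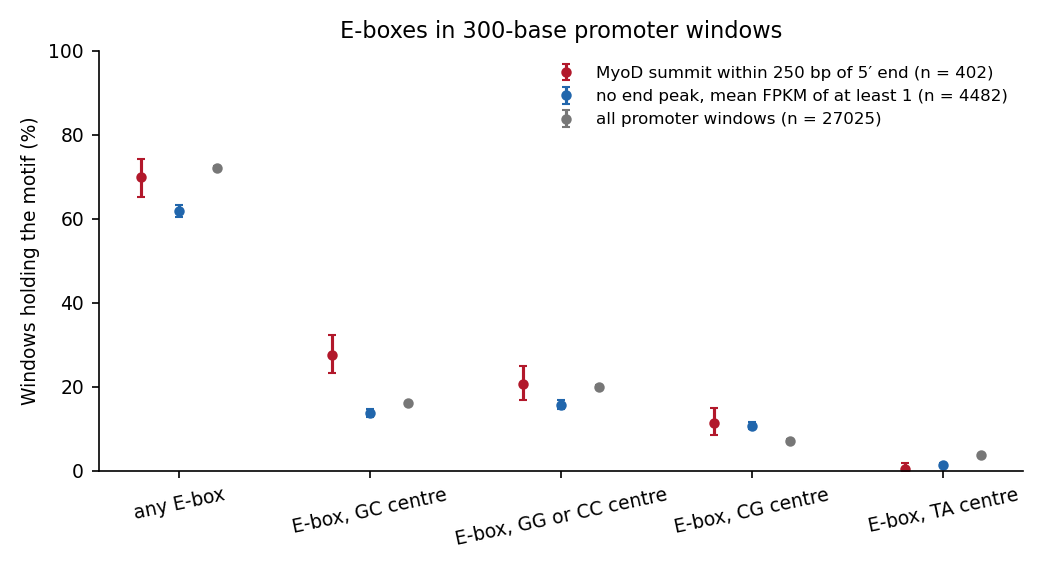
Percent of 300-base promoter windows that hold an E-box of each kind, for genes with a MyoD summit within 250 bp of the 5′ end (red), eligible genes with a mean of at least 1 FPKM and no end peak (blue) and all windows (grey); bars are exact 95% intervals for counting error. The E-box with a GC centre is in 27.6%, 13.8% and 16.1% of windows, and any E-box in 69.9%, 62.0% and 72.1%.

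Within the central 5′ peaks CAGCTG was in 11 of 25 promoters of genes called higher (44.0%, 24.4 to 65.1), 16 of 54 called lower (29.6%, 17.98 to 43.6) and 75 of 290 not called (25.9%, 20.9 to 31.3), intervals that overlap. Of 119 genes with a peak at the 3′ end only, 22 had CAGCTG in the promoter (18.5%, 11.96 to 26.6). In its 250 upstream bases the promoter of Sparc (41 tags) held 1 CAGCTG, and that of Atf4 (67 tags) held 2 CAGGTG and no CAGCTG. The promoter of Adssl1, with 52 tags, held 2 E-boxes there, both CATCTG.

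The pairs nearest to the limit of 1 kb were at Ier5l (997 bp, 19 tags), Reep1 (992 bp, 9 tags) and Wisp1 (989 bp, 35 tags), each inside the locus. The Ier5l summit also lay 555 bp from the other end of its gene, the 5′ end. Ier5l was at 13.1 and 5.06 FPKM and not called, Reep1 rose from 8.42 to 75.5 and Wisp1 fell from 29.7 to 13.0, a call lost after centring. Just outside lay Gm13636 (1001 bp, 8 tags, listed at 0 in both conditions), Tram1 (1001 bp, 7 tags, 29.3 and 17.5 FPKM) and Lad1 (1002 bp, 48 tags, 0.655 and 0.213 FPKM).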

How the data were processed

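Per the submitters' processing notes the authors used CASAVA 1.7.0, MACS 1.3.7, Cuffdiff and the mm9 build; no source used here names the aligner, annotation release or normalization setting. Deposited expression values are FPKM, 1 per gene and condition, with the authors' p-values and q-values, and a call is the authors' significant flag. The table came in 2 identical copies and 1 was used. Each standard error was found as the quotient of the deposited log2 fold change and test statistic, which gave back their p-values to within 2.68e-06. The labels' protocol states sequencing in duplicates; the sources used here do not say how these were combined.

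Per the file headers, peaks were called by MACS at a p-value threshold of 1.00e-05 from 8637045 ChIP tags (4049890 unique) and 9129012 control tags (4371189 unique). Per the file headers, tags are counts per peak, fold enrichment is a ratio, the p column is a score, -10 times log10 of p, and the false discovery rate is a percent. No antibody against MyoD is among those named in the labels' protocol. RNA read totals are not given, so RNA depth is unknown.

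Summits were joined to locus ends in Python 3.11.15 with pandas 2.3.3 and SciPy 1.17.1, and the join was tested on simulated data. Strand and promoters came from the RefSeq GRCm38.p6 table (27025 symbols), by gene name, with no coordinates converted. Members, gene lists (17 lists, 343 genes) and rules were chosen with earlier results of these data known. Genes named were those with most tags, highest fold enrichment, largest called rises and falls (larger FPKM at least 10, smaller at least 0.1), highest level not called, peaks at both ends, list members (up to 6 a list, by tags), genes at 0 and those nearest the limit; the promoters printed are 5 of the 8 that the rule gave (by tags, summit within 250 bp of the start), picked for muscle genes after their values were seen. Alternatives changed the window, loci, peaks, centring, pseudocount and filters. With 1 library per condition no difference has a replicate check here.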

Additional observations from a re-analysis of the deposited data

How the results depend on the processing

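No paired analysis was possible because each group has 1 sample. The number of peaks at locus ends, 986, was 735 with a window of 500 bp, 1349 with 2 kb and 1337 with shared loci, and fell to 409 with peaks of at least 20 tags and 134 with a false discovery rate of at most 5%, which removes peaks by construction. The share of pairs at 5′ ends, 81.5%, was 88.2% with a window of 500 bp, 71.8% with 2 kb, 73.6% with shared loci and 87.7% with at least 20 tags. The share of tested genes called higher, 10.5%, was 14.5% (56 genes) with at least 20 tags, 15.3% (17 genes) with the 5% limit and 14.4% (120 genes) after centring. The share called lower, 13.5%, was 9.91% (11 genes) with the 5% limit and 7.90% (66 genes) after centring. With shared loci, counts were 139 higher and 218 lower, against 88 and 113. The median log2 ratio, -0.20, was -0.10 with at least 20 tags and turned to 0.0066 with the 5% limit; the cause was not tested. The median level of 17.2 FPKM was 26.8 over tested genes only (17.1 over eligible tested genes), and the median of 17 tags was 27.5 with the 5% limit. Alternatives chosen after seeing the data, without loci of at most 2 kb and without peaks near ends of loci left out, gave 82.7% and 80.9% at 5′ ends, 10.6% and 10.9% higher. No error of a peak could be given from 1 ChIP library.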

Other observations

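The share of peaks at locus ends varied between chromosomes, from 5.96% of 369 peaks on chromosome 18 to 12.3% of 277 on chromosome 19. Genes whose strand was not known had summits farther from the end than 5′ ends and nearer than 3′ ends, with a median of 308 bp over 323 pairs and 46.7% within 250 bp. Of 41 tested genes with at least 2 end peaks, 4 were higher (9.76%, 2.72 to 23.1) and 7 lower (17.1%, 7.15 to 32.1), against 10.5% and 13.5% of all tested genes with an end peak, and the difference was not tested.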
